A study of Sus scrofa with 64 samples.

Results

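Jejunal mucosa of 4-week-old suckling piglets that had gone 48 h without milk was compared with that of piglets still nursing. The 2 groups were taken by their labelled age and feeding state: 16 fasted and 16 fed piglets of 4 weeks, 32 of the 64 piglets in the series. The other 32 were fasted and fed piglets of 6 weeks, which had spent 2 weeks on a weaning diet. The question was what 48 h without food changes in the mid-jejunum, the middle of the small intestine. Each piglet gave 1 library of total RNA from scraped mucosa, and raw counts per gene were deposited. All were female TN20 pigs, a cross of Large White and Norwegian Landrace, reared on a commercial farm on sow's milk with no creep feed and with free water. Fasted piglets were taken from the sow to a separate pen on the farm for the 48 h. Fed piglets stayed with the sow, and both groups were killed on the farm at the same time. Loss of milk, loss of the sow and the new pen therefore cannot be told apart in any difference given here.

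The jejunum takes up most of a meal. Absorptive enterocytes arise from stem cells in the crypts, move up the villi and carry the digestive enzymes, transporters and secretory machinery that handle fat, sugar, peptides, minerals and vitamins. During suckling the meal is rich in fat, and enterocytes build chylomicrons from it in the endoplasmic reticulum and Golgi. Without a meal, the mucosa of many mammals relies on amino acids from the blood, glutamine above all, and is exposed to higher glucocorticoids and lower insulin. Interferon-stimulated, cell cycle and fat-packaging genes also differ strongly between these groups. The functions described here are other ones.

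Libraries of the 32 piglets held 18774144 to 20473226 counts in fasted and 19797263 to 21159989 counts in fed piglets, with 16978 to 18961 genes counted per piglet. The 10 most abundant genes took 10.96 ± 2.06% of the counts in fasted and 17.85 ± 1.50% in fed piglets (mean ± SD, n = 16 each). Enterocyte markers were high in every piglet, with a summed level of 11 markers of 19810 to 84067 CPM in fasted and 83302 to 99352 CPM in fed piglets. CPM are counts divided by the size of the library, itself scaled by its TMM factor, and given on the usual CPM scale. Summed marker levels, here and below, are the exception: they were divided by library size without the TMM factor. The ileal bile acid binder FABP6 was low, with a median of 0.0955 CPM in fasted and 0.0544 CPM in fed piglets, in tissue labelled as jejunum. It reached 8.14 CPM in fasted pig 7, 12.8 CPM in fasted pig 14 and 14.3 CPM in fed pig 9, and was under 2 CPM in the other piglets. The extraction protocol speaks of muscle, but the 8 skeletal muscle markers with a gene ID together reached at most 340 CPM in fasted and 204 CPM in fed piglets. Among the fasted piglets, pig 1 stood apart, with the lowest enterocyte marker level (mean log2 CPM 9.27). Pigs 28 and 32 had the highest. These 3 are ones that an earlier analysis of these data had given little weight. The calls at 4 weeks over all genes, gene lists and cell type markers were also counted without them. The labels give no litter, pen, day or batch.

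Markers of several other cell types moved with fasting, in libraries in which 63.4% of all 14062 tested genes were called, 33.9% as higher and 29.4% as lower in fasted piglets. All 13 tested smooth muscle markers fell, and their mean level was 1.78 lower on the log2 scale in fasted piglets (3.47 ± 1.00 fasted, 5.25 ± 0.55 fed, two-sided permutation test, adjusted p = 4.8e-05), with every fasted piglet below the fed median. The summed level was 76.4 to 684 CPM in fasted and 322 to 1143 CPM in fed piglets. Fibroblast and matrix markers fell in 10 of 15 and were 1.51 lower (adjusted p = 0.00049), and vessel markers fell in 9 of 15 and were 0.95 lower (adjusted p = 0.00049). Red blood cell markers were 1.18 lower (adjusted p = 4.8e-05). Of 13 macrophage and dendritic cell markers, 7 rose and 0 fell. The mean level of these markers was 0.75 higher (5.32 ± 0.57 fasted, 4.57 ± 0.42 fed, adjusted p = 0.00049), and their summed level was 1132 to 6625 CPM in fasted and 971 to 3504 CPM in fed piglets. Crypt base and stem cell markers were 1.18 higher (adjusted p = 0.00013) and plasma cell markers 0.90 higher (adjusted p = 0.00019). Neutrophil and eosinophil markers, of which 3 were tested and 3 rose, were 1.61 higher, with 16 of 16 fasted piglets over the fed median (2.28 ± 0.63 fasted, 0.67 ± 0.42 fed, adjusted p = 4.8e-05). T cell markers were 0.56 higher (adjusted p = 0.0011), general epithelial markers 0.32 higher (adjusted p = 7.6e-05) and skeletal muscle markers 0.29 higher (adjusted p = 0.015). Fat cell markers were 1.03 lower (adjusted p = 4.8e-05) and neuron and glia markers 0.30 lower (adjusted p = 0.015). No macrophage or smooth muscle marker was at 0 in all 32 piglets. Enterocyte markers differed by -0.30 (11.09 ± 0.62 fasted, 11.39 ± 0.14 fed, adjusted p = 0.064). Without fasted pigs 1, 28 and 32 this was -0.28 and passed (adjusted p = 0.0041). Goblet cell markers differed by 0.04 (adjusted p = 0.54), tuft cell markers by 0.09 (adjusted p = 0.32), B cell markers by 0.54 (adjusted p = 0.10) and mast cell markers by -0.08 (adjusted p = 0.73). In bulk tissue, fewer cells of a type and less RNA per cell cannot be told apart. The part that these shifts play in the gene results was not tested.

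**Figure D1:**
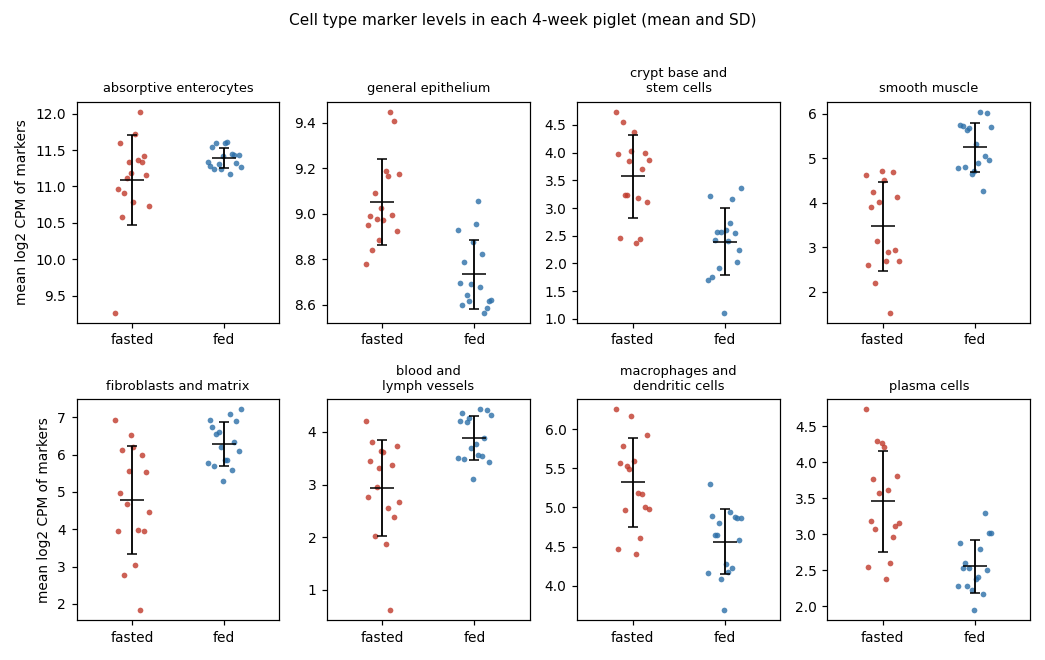
Mean log2 CPM of the markers of 8 cell types in each 4-week piglet (points), fasted on the left and fed on the right of each panel, with the mean and SD of 16 piglets as black bars. Smooth muscle levels lay at 1.53 to 4.72 in fasted and 4.26 to 6.05 in fed piglets, and 1 fasted piglet lay at 9.27 for enterocytes, far below the other piglets.

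Most tested genes differed between fasted and fed piglets. Of 14062 genes tested, 4768 (33.9%) rose and 4141 (29.4%) fell in fasted piglets, by edgeR's quasi-likelihood test at a Benjamini-Hochberg adjusted p under 0.05, the test behind every gene value below. With scaling by library size alone the split was 6960 and 2518, and the median gene moved to 0.25 from 0.03 on the log2 scale, so small shifts of a whole list depend on the scaling. A total of 1358 rises (9.66% of genes) and 992 falls (7.05%) were at least 2-fold. For 653 genes (4.64%) every fasted piglet lay outside the range of the fed piglets. Described by 45 lists of genes with 931 tested members, 287 members rose and 327 fell. Against this background, 39 of 53 genes for entry into the endoplasmic reticulum and for vesicle coats fell. The share that fell was also high for iron handling (11 of 14), calcium and vitamin D (8 of 11), glycolysis (14 of 22) and lysosomes (25 of 46). Cytosolic tRNA synthetases rose in 15 of 19, cytosolic heat shock and chaperonin genes in 24 of 38, and glucocorticoid genes in 10 of 16.

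**Figure D2:**
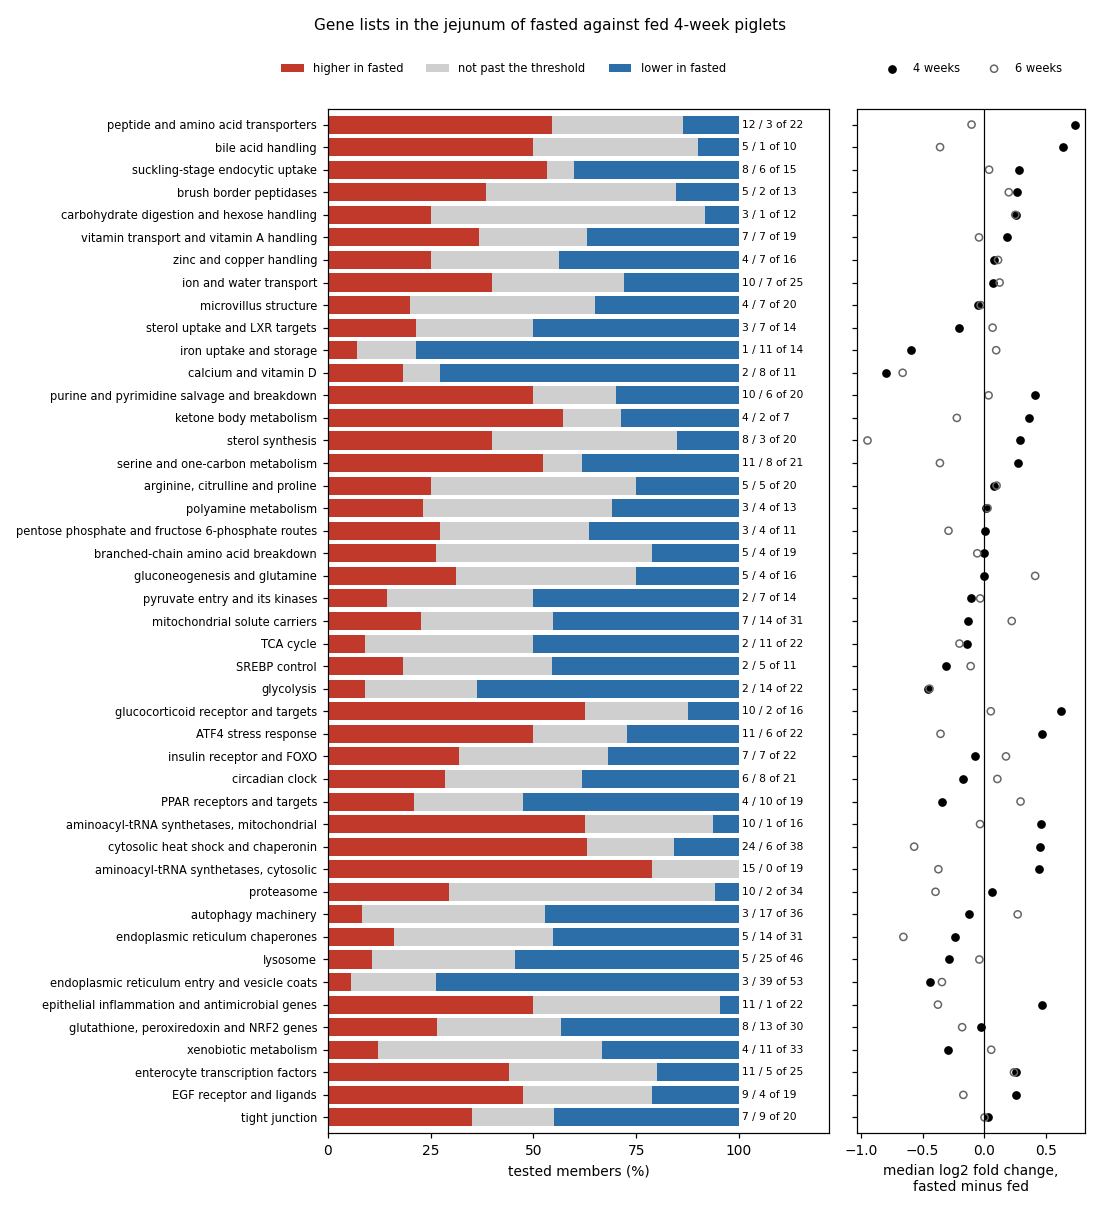
For each of 45 gene lists, the left panel gives the percent of tested members higher in fasted (red), not past the threshold (grey) and lower in fasted (blue) 4-week piglets, with the counts higher / lower of tested beside the bar. The right panel gives the median log2 fold change, fasted minus fed, at 4 weeks (filled) and 6 weeks (open); at 4 weeks it ranged from -0.79 for calcium and vitamin D to 0.73 for peptide and amino acid transporters.

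The largest group to fall was the machinery that moves new proteins and lipoproteins out of the endoplasmic reticulum (ER). Of 53 genes, 39 fell, 3 rose and 11 did not pass. The list's median log2 fold change was -0.44, beside 0.03 over all genes, and with library size alone 28 fell and 9 rose. For 12 of the 53 the fasted and fed ranges did not overlap, beside 4.64% of all genes. KDELR3, a receptor that returns escaped ER proteins from the Golgi, had 10.0 to 23.8 CPM (median 17.9) in fasted piglets, against 82.3 to 201 CPM (median 139) in fed piglets (log2 fold change -2.98, SE 0.14, adjusted p = 2.8e-26). The lowest fed piglet lay well above the highest fasted piglet. SEC24D, a cargo-binding subunit of the COPII coat that buds vesicles from the ER, had 57.3 to 196 CPM (median 116) in fasted piglets, against 305 to 743 CPM (median 475) in fed piglets (log2 fold change -1.94, SE 0.12, adjusted p = 6.6e-21), again without overlap. LMAN1, a cargo receptor between ER and Golgi, fell by a smaller amount with no overlap (median 109.5 CPM fasted and 289 CPM fed, log2 fold change -1.37, SE 0.10, adjusted p = 1.5e-18). KDELR3 (ENSSSCG00000000105, chromosome 5, 9505205 to 9515723), SEC24D (ENSSSCG00000009112, chromosome 8, 104560723 to 105005400) and LMAN1 (ENSSSCG00000004908, chromosome 1, 161607122 to 161631650) are protein-coding genes, with positions on Sscrofa11.1 matched by symbol. The exceptions among the 53 were TMED3 and SSR4, which rose by 0.73 and 0.57 (adjusted p = 2.9e-04 and 2.4e-06). SEC11A, named here after its value was seen, was the third, at 0.12.

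ER chaperones did not all fall with the coats. Of 31, 14 fell and 5 rose, with a median of -0.24, and with library size alone 9 fell and 9 rose. P4HB, a disulfide isomerase that is also a subunit of the lipid transfer protein used in chylomicron assembly, had 1279 to 3675 CPM (median 2746) in fasted piglets, against 4708 to 10780.1 CPM (median 6567) in fed piglets (log2 fold change -1.35, SE 0.10, adjusted p = 1.4e-17), and these ranges did not overlap. HSPA5, the main lumenal chaperone, had 404 to 1157 CPM (median 770.0) in fasted piglets, against 461 to 1636 CPM (median 925) in fed piglets (log2 fold change -0.24, SE 0.15, adjusted p = 0.17) and did not pass, with largely overlapping ranges. PDIA2, another disulfide isomerase, was among the 12 largest falls described further on (median 1.25 CPM in fasted and 23.3 CPM in fed piglets, log2 fold change -3.96, SE 0.34, adjusted p = 5.0e-16). PPIB and ERN2 rose by 0.50 and 0.41 (adjusted p = 3.4e-04 and 4.7e-04). ERN2 is a stress sensor of mucus-producing cells.

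**Figure D3:**
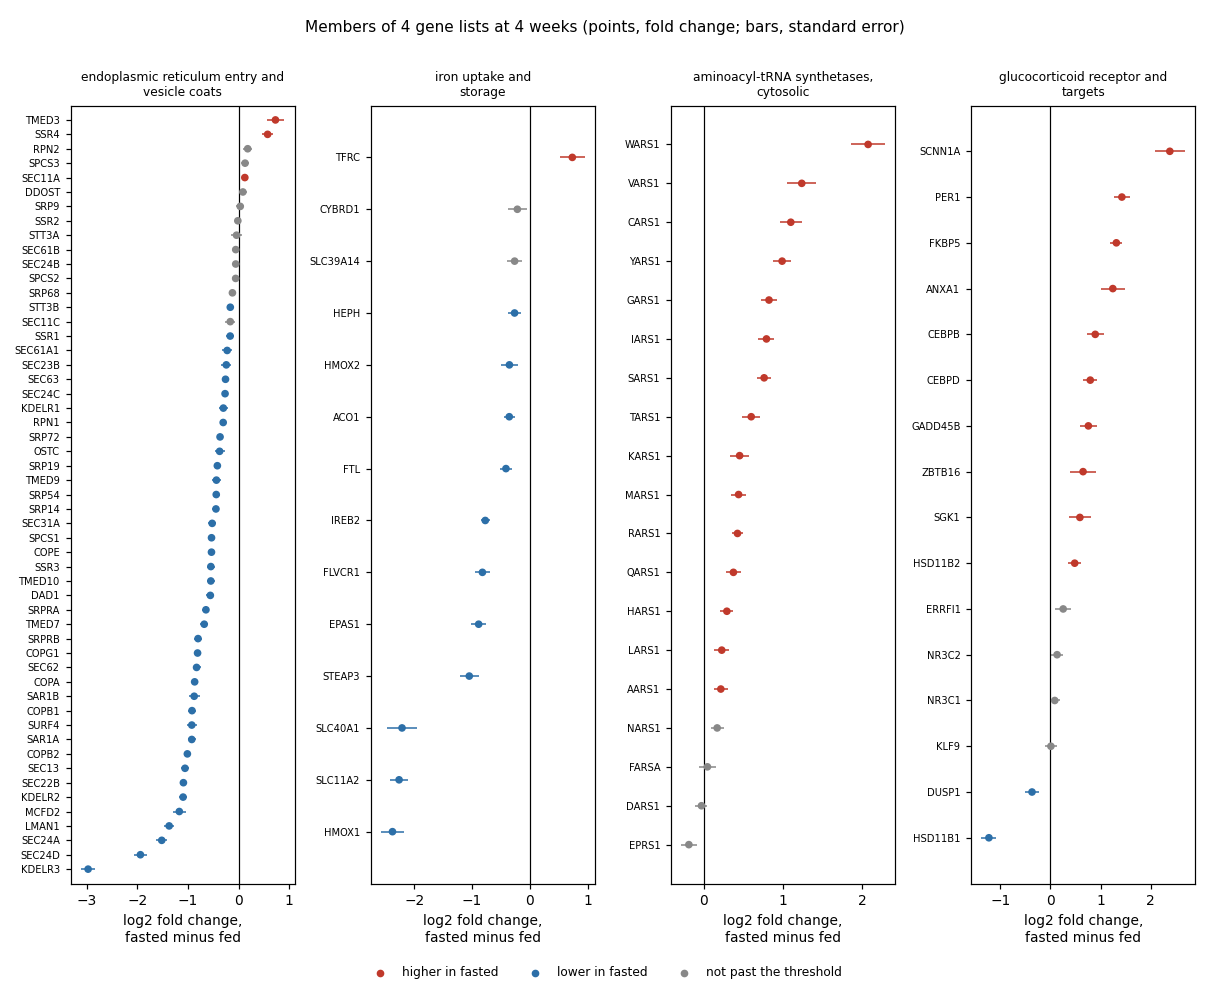
Log2 fold change (fasted minus fed 4-week piglets, x axis) of each tested member of 4 gene lists, with bars of 1 standard error, red where higher in fasted, blue where lower and grey where the test was not passed. Members of the vesicle coat and iron lists lie mostly left of 0, with KDELR3 at -2.98 and SLC11A2 at -2.26, and the synthetase and glucocorticoid lists mostly right of it, with WARS1 at 2.07 and SCNN1A at 2.38.

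Several regulators of sterol and fat supply fell, while more of the sterol synthesis enzymes rose than fell. SREBF1, a transcription factor that drives fatty acid synthesis and is itself a target of the liver X receptor (LXR), had 42.0 to 152 CPM (median 98.1) in fasted piglets, against 285 to 873 CPM (median 463) in fed piglets (log2 fold change -2.34, SE 0.17, adjusted p = 2.2e-18). No fasted piglet reached the fed range. INSIG1 and INSIG2, ER proteins that hold SREBP factors back, fell too. INSIG1 had 36.7 to 286 CPM (median 107) in fasted piglets, against 269.8 to 1538 CPM (median 852) in fed piglets (log2 fold change -2.69, SE 0.23, adjusted p = 7.7e-16), with a small overlap, and INSIG2 medians were 15.3 CPM in fasted and 72.1 CPM in fed piglets (log2 fold change -2.14, SE 0.14, adjusted p = 5.5e-21). Of the 11 genes of SREBP control, 2 rose and 5 fell, with 3 and 4 under library size alone. SREBF1 (ENSSSCG00000033626, chromosome 12, 60733967 to 60750951) is protein-coding.

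Among 14 genes of sterol uptake and LXR targets, 7 fell and 3 rose. ABCA1, which exports cholesterol to HDL particles, had 42.7 to 135 CPM (median 73.2) in fasted piglets, against 238 to 439 CPM (median 300.4) in fed piglets (log2 fold change -2.02, SE 0.19, adjusted p = 1.2e-14), without overlap. LPCAT3, which remodels membrane phospholipids, fell without overlap as well (median 117 CPM in fasted and 445 CPM in fed piglets, log2 fold change -1.90, SE 0.14, adjusted p = 5.6e-19). ABCG1, another cholesterol exporter, went the other way without overlap (median 9.91 CPM in fasted and 3.09 CPM in fed piglets, log2 fold change 1.70, SE 0.15, adjusted p = 4.4e-15), and NPC1L1, the importer of dietary cholesterol, rose by 0.68 (adjusted p = 5.5e-06). ABCG1 is abundant in macrophages, whose markers were 0.75 higher in the same piglets. Of 20 sterol synthesis enzymes, 8 rose, 3 fell and 9 did not pass (median 0.29), and 13 rose and 0 fell with library size alone. The squalene oxidase SQLE rose by 0.75 (SE 0.23, adjusted p = 0.0042), with overlapping ranges. CYP51A1 and SC5D fell by 0.56 and 0.45 (adjusted p = 0.011 and 0.038), neither of which passed under library size scaling. The synthesis list at 6 weeks had 18 falls and 0 rises, against 18.4% and 22.7% of all genes at that age.

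Genes that bring iron into and out of the enterocyte fell together. Of 14 genes, 11 fell, 1 rose and 2 did not pass. Their median log2 fold change was -0.59, and with library size alone 8 fell and 1 rose. For 4 of the 14 the groups did not overlap, beside 4.64% of all genes. SLC11A2, which imports ferrous iron at the brush border, had 24.8 to 71.3 CPM (median 32.9) in fasted piglets, against 93.7 to 399.8 CPM (median 182) in fed piglets (log2 fold change -2.26, SE 0.16, adjusted p = 1.7e-19). SLC40A1, ferroportin, which passes iron to the blood, had 40.6 to 522 CPM (median 166) in fasted piglets, against 647 to 2122 CPM (median 948) in fed piglets (log2 fold change -2.21, SE 0.26, adjusted p = 8.7e-11). HMOX1, which frees iron from haem, had 20.9 to 81.1 CPM (median 36.3) in fasted piglets, against 130.4 to 414 CPM (median 219.5) in fed piglets (log2 fold change -2.38, SE 0.20, adjusted p = 2.7e-16). In none of these 3 did any fasted piglet reach the fed range. TFRC, the transferrin receptor that dividing cells use to take up iron from the blood, rose by 0.73 (SE 0.21, adjusted p = 0.0021), with overlap. SLC11A2 (ENSSSCG00000034039, on a sequence not placed on a chromosome) and SLC40A1 (ENSSSCG00000027157, chromosome 15, 94140635 to 94161793) are protein-coding. HMOX1 and SLC40A1 are also active in macrophages, whose markers were higher in the fasted piglets.

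Calcium genes also fell, in 8 of 11, with 2 rises. TRPV6, the apical calcium channel, had 44.8 to 217 CPM (median 70.5) in fasted piglets, against 127 to 540.0 CPM (median 241) in fed piglets (log2 fold change -1.52, SE 0.23, adjusted p = 4.0e-08). S100G, the calcium carrier calbindin-D9k, had 893 to 3417 CPM (median 1677) in fasted piglets, against 2684 to 6547 CPM (median 5170.3) in fed piglets (log2 fold change -1.48, SE 0.19, adjusted p = 7.2e-10). VDR, the vitamin D receptor that controls both, fell by 1.12 on the log2 scale (median 332 CPM in fasted and 709.8 CPM in fed piglets, SE 0.13, adjusted p = 1.2e-11). Ranges of all 3 overlapped, but every fasted piglet lay below the fed median for TRPV6, S100G and VDR.

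Zinc and copper genes were mixed, with 7 falls and 4 rises among 16, and 6 and 7 with library size alone. SLC39A4, the main zinc importer, fell (median 389 CPM in fasted and 1440.0 CPM in fed piglets, log2 fold change -1.63, SE 0.23, adjusted p = 9.4e-09), and so did the copper importer SLC31A1 (-1.17, SE 0.20, adjusted p = 9.1e-07). MT1X, a metallothionein that binds zinc and copper, had 14.7 to 81.0 CPM (median 32.3) in fasted piglets, against 0.829 to 5.78 CPM (median 2.18) in fed piglets (log2 fold change 3.80, SE 0.40, adjusted p = 1.1e-12). Its ranges did not overlap and it was among the 12 largest rises described further on. Metallothioneins are near-identical copies, so reads may be split among them, and MT1A and MT2A had no paired ID. MTF1, the zinc-sensing factor that induces metallothioneins, rose by 0.48 (adjusted p = 7.7e-05).

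**Figure D4:**
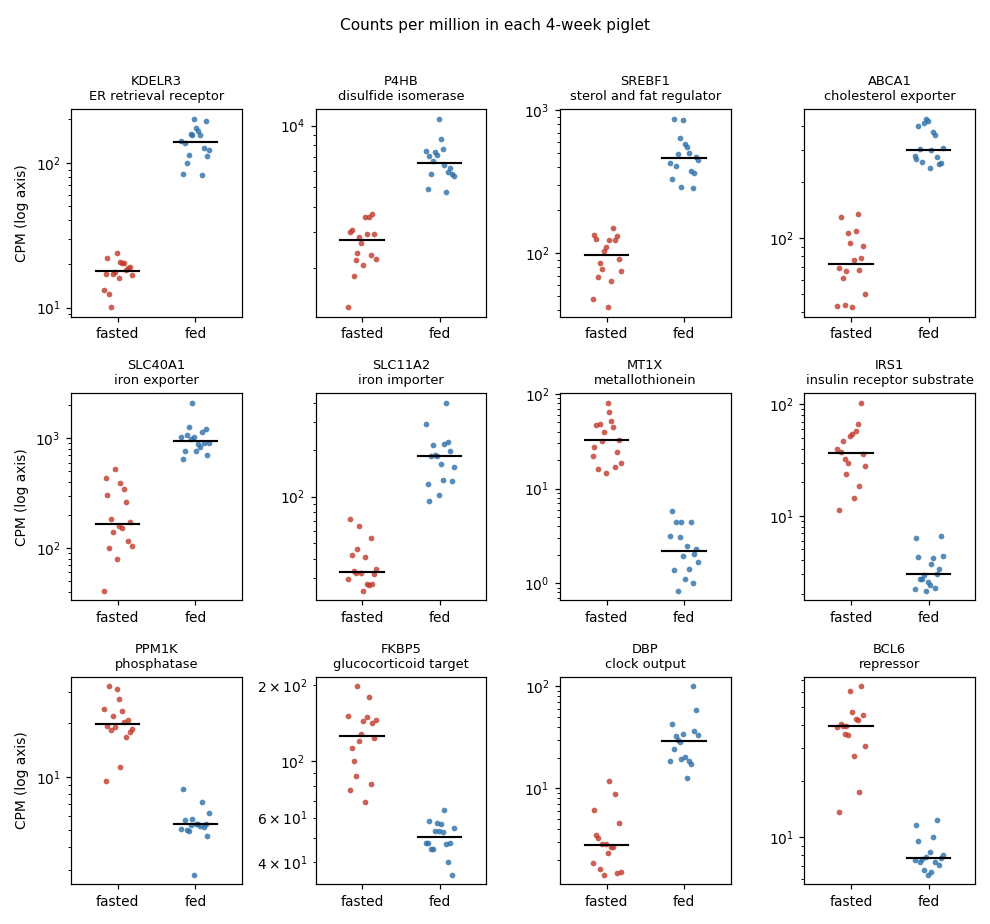
CPM of 12 genes in each 4-week piglet on log axes, fasted (red, left) and fed (blue, right), with a black line at the median of 16 piglets. The 2 groups do not overlap in any panel; KDELR3, P4HB, SREBF1, ABCA1, SLC40A1, SLC11A2 and DBP were lower and MT1X, IRS1, PPM1K, FKBP5 and BCL6 higher in fasted piglets.

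Vitamin and ion transport genes moved both ways. Of 19 vitamin genes, 7 rose and 7 fell. RBP2, which carries retinol in the enterocyte, had 410.2 to 2137 CPM (median 1372) in fasted piglets, against 2216 to 4486 CPM (median 3457) in fed piglets without overlap (log2 fold change -1.36, SE 0.16, adjusted p = 2.9e-11). ISX, a factor that represses vitamin A uptake, rose by 0.85 (adjusted p = 3.7e-05), and the thiamine transporter SLC19A3 fell by 1.30 (adjusted p = 1.2e-09). Among 25 ion and water genes, 10 rose and 7 fell. SLC9A3, the apical sodium-proton exchanger that drives sodium and water uptake, had 125 to 557 CPM (median 387) in fasted piglets, against 687 to 1323 CPM (median 1004) in fed piglets (log2 fold change -1.50, SE 0.13, adjusted p = 4.6e-15), and SLC20A1, a phosphate importer, had 49.5 to 97.4 CPM (median 71.3) in fasted piglets, against 18.2 to 33.9 CPM (median 28.4) in fed piglets (log2 fold change 1.37, SE 0.08, adjusted p = 4.1e-22). Neither gene had any overlap between the groups. SLC26A3, a chloride-bicarbonate exchanger, rose widely but unevenly, with 2.96 to 248 CPM (median 94.3) in fasted piglets, against 3.70 to 58.2 CPM (median 16.1) in fed piglets (log2 fold change 2.41, SE 0.34, adjusted p = 1.1e-08). The bicarbonate importer SLC4A4 fell by 1.02 (adjusted p = 1.8e-06), and the potassium channel KCNN4 rose by 2.03 (adjusted p = 1.1e-08).

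Most genes of sugar digestion and uptake did not pass the test. Of the brush border peptidases 7 of 13 passed, no larger a share than the 63.4% of all genes. Of 12 carbohydrate genes, 3 rose, 1 fell and 8 did not pass, and 6 rose and 0 fell with library size alone. MGAM, the maltase-glucoamylase that splits starch fragments, had 429.7 to 2903 CPM (median 1098) in fasted piglets, against 77.0 to 748 CPM (median 223) in fed piglets (log2 fold change 2.30, SE 0.26, adjusted p = 2.1e-11). The fed median was exceeded by 16 of the 16 fasted piglets. SLC5A9, a sodium-coupled sugar transporter, rose by 1.99 (adjusted p = 3.5e-08). The glucose exporter SLC2A2 and the fructose importer SLC2A5 were at 0.24 and 0.22 (adjusted p = 0.15 and 0.3). Of 13 brush border peptidases, 5 rose and 2 fell, and 9 and 2 with library size alone. CPO and DPP4 rose by 2.09 and 0.69 (adjusted p = 1.0e-04 and 1.1e-05). MME and ACE fell by 0.80 and 0.73 (adjusted p = 3.7e-05 and 0.005), and ANPEP, aminopeptidase N, was at 0.32 (SE 0.16, adjusted p = 0.073). TMIGD1, a small adhesion protein of the brush border, rose (median 77.9 CPM in fasted and 10.0 CPM in fed piglets, log2 fold change 2.88, SE 0.37, adjusted p = 1.0e-09), while of 20 microvillus genes 4 rose and 7 fell, and 8 and 5 with library size alone.

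Genes of bile acid handling and of suckling-stage uptake shifted in part. NR0B2, a repressor induced by bile acids through their receptor, had 14.1 to 113 CPM (median 60.7) in fasted piglets, against 227 to 558 CPM (median 391) in fed piglets (log2 fold change -2.63, SE 0.24, adjusted p = 8.2e-15), without overlap. NR1H4, which encodes that receptor (FXR), rose (median 38.8 CPM in fasted and 14.1 CPM in fed piglets, log2 fold change 1.56, SE 0.20, adjusted p = 1.2e-09). FGF19, a hormone by which the gut signals bile acid return to the liver, rose by 1.51 (SE 0.46, adjusted p = 0.0036) at medians of 6.32 CPM in fasted and 2.57 CPM in fed piglets. The bile acid importer SLC10A2 was at -0.28 (SE 0.41, adjusted p = 0.58). Of 15 genes for endocytic uptake of milk proteins, 8 rose and 6 fell. FCGRT, the receptor that carries maternal IgG, rose by 0.39 (adjusted p = 3.1e-05), and PIGR, which carries IgA into the gut lumen, by 1.78 (adjusted p = 2.0e-05). CUBN, a large endocytic receptor, rose by 1.39 (adjusted p = 0.0049), and the lysosomal amidase NAAA fell by 1.86 (adjusted p = 5.5e-13).

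Amino acid genes rose more often than they fell among the transporters. Of 22 peptide and amino acid transporters, 12 rose and 3 fell, and the median over the list was 0.73 on the log2 scale. SLC38A5, which exchanges glutamine and other neutral amino acids, had 10.3 to 42.6 CPM (median 21.2) in fasted piglets, against 3.23 to 11.5 CPM (median 5.58) in fed piglets (log2 fold change 1.85, SE 0.18, adjusted p = 2.2e-13). SLC7A5, the large neutral amino acid exchanger of growing cells, rose (median 28.9 CPM in fasted and 11.4 CPM in fed piglets, log2 fold change 1.70, SE 0.25, adjusted p = 3.5e-08). The falls were those of the brush border importer SLC6A19 (-0.59, SE 0.13, adjusted p = 7.5e-05), the proton-coupled transporter SLC36A1 (-1.54, SE 0.15, adjusted p = 4.9e-14) and SLC43A2 (-0.75, SE 0.17, adjusted p = 7.8e-05), which lets neutral amino acids out of the cell.

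GPT2, which makes alanine in mitochondria, rose (median 119.6 CPM in fasted and 5.92 CPM in fed piglets, log2 fold change 2.83, SE 0.42, adjusted p = 3.1e-08), and ASNS, which makes asparagine, had 11.2 to 82.5 CPM (median 30.6) in fasted piglets, against 5.93 to 13.6 CPM (median 8.70) in fed piglets (log2 fold change 1.95, SE 0.24, adjusted p = 2.5e-10). The mitochondrial aspartate and glutamate carriers SLC25A13 and SLC25A22 fell by 1.17 and 0.69 (adjusted p = 1.8e-15 and 1.8e-09), both without overlap. GPT2 (ENSSSCG00000002847, chromosome 6, 37625428 to 37669695) is protein-coding. Over the 16 genes of gluconeogenesis and glutamine use, 5 rose and 4 fell, so the list as a whole stayed near the background shares.

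The intestine of young pigs makes citrulline and arginine. Of 20 genes of arginine, citrulline and proline, 5 rose and 5 fell. OAT, which links ornithine and glutamate, rose by 0.77 (SE 0.18, adjusted p = 1.9e-04), while CPS1, the first step to citrulline, was at -0.07 (adjusted p = 0.61). GATM, the first enzyme of creatine synthesis, had 1.02 to 11.4 CPM (median 2.52) in fasted piglets, against 5.58 to 69.1 CPM (median 36.3) in fed piglets (log2 fold change -3.48, SE 0.25, adjusted p = 5.7e-19), among the 12 largest falls. The creatine importer SLC6A8 fell as well (median 697 CPM in fasted and 1803 CPM in fed piglets, log2 fold change -1.23, SE 0.13, adjusted p = 4.2e-12). In polyamine metabolism, SAT1, which marks polyamines for breakdown, rose (median 562 CPM in fasted and 198 CPM in fed piglets, log2 fold change 1.51, SE 0.12, adjusted p = 4.2e-17). ODC1, the first enzyme of their synthesis, and AZIN1, which protects it, fell by 0.56 and 0.85 (adjusted p = 6.1e-07 and 1.1e-14).

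Serine and one-carbon genes were split, with 11 rises and 8 falls among 21. PSAT1, which makes serine from glucose, had 0.510 to 6.52 CPM (median 1.81) in fasted piglets, against 7.11 to 24.5 CPM (median 12.4) in fed piglets (log2 fold change -2.62, SE 0.39, adjusted p = 3.0e-08), without overlap, and PSPH, the next step, fell by 1.09 (adjusted p = 4.4e-05). SHMT1, which turns serine into one-carbon units, and GGH, a folate hydrolase, rose by 1.66 and 1.80 (adjusted p = 2.0e-06 and 2.8e-10). Nucleoside salvage genes rose in 10 of 20 and fell in 6. The rises included the phosphorylases UPP1 (1.88, SE 0.22, adjusted p = 9.8e-11) and PNP (1.49, SE 0.24, adjusted p = 3.2e-07). ENTPD5, which splits phosphate from nucleoside diphosphates, had 256 to 963 CPM (median 629) in fasted piglets, against 1268 to 3458 CPM (median 1754) in fed piglets without overlap (log2 fold change -1.57, SE 0.14, adjusted p = 1.2e-15). The nucleoside importer SLC28A3 fell by 1.83 (adjusted p = 3.4e-05). PPM1K, the phosphatase that switches on branched-chain amino acid breakdown, had 9.43 to 32.4 CPM (median 19.9) in fasted piglets, against 2.81 to 8.55 CPM (median 5.39) in fed piglets (log2 fold change 1.92, SE 0.14, adjusted p = 5.6e-19), without overlap, and 5 of 19 genes of that pathway rose and 4 fell.

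Glycolysis genes fell in 14 of 22 and rose in 2, with a median of -0.45, and fell in 10 with library size alone. SLC16A3, the lactate exporter, had 7.00 to 38.5 CPM (median 16.3) in fasted piglets, against 55.4 to 174 CPM (median 94.8) in fed piglets (log2 fold change -2.45, SE 0.24, adjusted p = 2.2e-13), without overlap. The muscle-type enolase ENO3 fell by 1.37 (adjusted p = 6.0e-09). In the same piglets smooth muscle markers were 1.78 lower and skeletal muscle markers 0.29 higher, and the part of either in this fall was not tested. The 2 rises were hexokinases, HK3 (median 33.7 CPM in fasted and 5.51 CPM in fed piglets, log2 fold change 2.87, SE 0.21, adjusted p = 1.5e-18) and HK2 (1.21, SE 0.15, adjusted p = 4.9e-10). HK3 is known from myeloid cells, whose markers rose. Of 14 genes of pyruvate entry, 7 fell and 2 rose, and 4 and 4 with library size alone. PDHA1, the catalytic subunit of pyruvate dehydrogenase, had 47.3 to 123 CPM (median 80.5) in fasted piglets, against 123 to 227 CPM (median 149.9) in fed piglets (log2 fold change -0.98, SE 0.10, adjusted p = 2.4e-12), without overlap. PDK2, a kinase that switches this enzyme off, fell (median 11.4 CPM in fasted and 36.7 CPM in fed piglets, log2 fold change -1.50, SE 0.16, adjusted p = 3.7e-12), and PDK4, the kinase that fasting raises in many tissues, was at 0.33 (SE 0.22, adjusted p = 0.17). PC, which feeds pyruvate into the cycle as oxaloacetate, rose by 1.03 (adjusted p = 1.8e-07).

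The TCA cycle had 11 falls and 2 rises among 22 genes (median -0.14), but 8 of each with library size alone. SUCLA2, a subunit of succinyl-CoA synthetase, fell without overlap (median 34.8 CPM in fasted and 80.7 CPM in fed piglets, log2 fold change -1.24, SE 0.10, adjusted p = 6.8e-17). SLC25A1, which exports citrate for fat and sterol synthesis, had 100.5 to 292 CPM (median 181) in fasted piglets, against 356 to 637 CPM (median 447) in fed piglets (log2 fold change -1.34, SE 0.09, adjusted p = 2.3e-19), also without overlap. Mitochondrial carriers as a list fell in 14 of 31 and rose in 7, and in 13 and 12 with library size alone. The ketone body genes were few: 4 of 7 rose and 2 fell. AACS, which uses ketone bodies for lipid synthesis, rose by 0.47 (adjusted p = 1.1e-04). SLC16A6, a ketone body transporter in zebrafish liver, fell by 3.36 (SE 0.46, adjusted p = 3.4e-09), with fed values spread over 0.610 to 70.7 CPM.

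Insulin and growth factor genes held some of the clearest differences. IRS1, the docking protein of the insulin receptor, had 11.4 to 104 CPM (median 36.4) in fasted piglets, against 2.12 to 6.61 CPM (median 2.99) in fed piglets (log2 fold change 3.55, SE 0.27, adjusted p = 5.6e-18). The lowest fasted piglet lay above the highest fed piglet. IGFBP2, which binds insulin-like growth factors, had 1.22 to 7.01 CPM (median 3.36) in fasted piglets, against 12.9 to 68.2 CPM (median 25.6) in fed piglets (log2 fold change -2.97, SE 0.22, adjusted p = 3.6e-18), without overlap, in piglets whose fibroblast markers were 1.51 lower. FOXO6, a member of the FOXO family of insulin-restrained factors, fell without overlap, with 0.288 to 1.63 CPM in fasted and 4.28 to 28.4 CPM in fed piglets (log2 fold change -4.21, SE 0.29, adjusted p = 1.9e-19). IRS2 rose by 0.60 (adjusted p = 0.011), a call lost without fasted piglets 1, 28 and 32, where it was 0.45. The list of 22 had 7 rises and 7 falls, close to the background. IRS1 (ENSSSCG00000025729, chromosome 15, 128245846 to 128307321) and IGFBP2 (ENSSSCG00000035392, chromosome 15, 118822092 to 118850985) are protein-coding. PPAR targets fell in 10 of 19 and rose in 4: the fatty acid sensor targets ANGPTL4 and PLIN2 rose by 0.74 and 0.74 (adjusted p = 0.0064 and 0.0011).

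Glucocorticoid targets rose in 10 of 16 and fell in 2, and the median over the list was 0.62 on the log2 scale. FKBP5, a co-chaperone of the glucocorticoid receptor and one of its standard targets, had 69.1 to 197 CPM (median 126) in fasted piglets, against 35.7 to 64.3 CPM (median 50.1) in fed piglets (log2 fold change 1.31, SE 0.12, adjusted p = 1.1e-14), without overlap. PER1, a target that is also a clock gene, rose (median 166 CPM in fasted and 66.5 CPM in fed piglets, log2 fold change 1.42, SE 0.17, adjusted p = 3.7e-11). SCNN1A, the epithelial sodium channel subunit, had 3.58 to 80.8 CPM (median 7.62) in fasted piglets, against 2.16 to 6.41 CPM (median 3.46) in fed piglets (log2 fold change 2.38, SE 0.30, adjusted p = 5.5e-10). The 6 fasted piglets numbered 21 to 32 had 23.6 to 80.8 CPM and the 10 numbered 1 to 19 had 3.58 to 12.9 CPM, against 3.37 to 6.41 CPM in the 6 fed piglets numbered 22 to 31 and 2.16 to 4.05 CPM in the 10 numbered 2 to 20. CUBN, described above, was split by number among fasted piglets in the same direction. The labels do not say what the numbers stand for, and their part in the SCNN1A value was not tested. The exceptions were HSD11B1, which regenerates active cortisol, and the phosphatase DUSP1, which fell by 1.23 and 0.37 (adjusted p = 1.6e-10 and 0.025). TSC22D3 had no paired ID. FKBP5 (ENSSSCG00000001549, chromosome 7, 31441764 to 31550704) is protein-coding.

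Clock genes fell in 8 of 21 and rose in 6, and with library size alone in 8 and 9. DBP, an output factor of the clock, had 1.42 to 11.8 CPM (median 2.77) in fasted piglets, against 12.6 to 100.3 CPM (median 29.1) in fed piglets (log2 fold change -3.16, SE 0.33, adjusted p = 1.2e-12), without overlap. BMAL1, of the activating arm, rose (median 25.8 CPM in fasted and 10.1 CPM in fed piglets, log2 fold change 1.33, SE 0.14, adjusted p = 4.9e-13), NR1D1, which represses it, fell by 1.12 (SE 0.28, adjusted p = 3.8e-04), and the kinase CSNK1E fell without overlap (-1.23, SE 0.10, adjusted p = 8.3e-17). The labels place both groups at the same time of killing, without giving the hour.

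Genes for making and folding cytosolic protein rose more often than they fell. Cytosolic tRNA synthetases rose in 15 of 19 and fell in 0 (median 0.44), and mitochondrial ones rose in 10 of 16 and fell in 1. WARS1, which charges tryptophan and is known to respond to interferon, had 108 to 523 CPM (median 352) in fasted piglets, against 63.7 to 103 CPM (median 79.3) in fed piglets (log2 fold change 2.07, SE 0.21, adjusted p = 4.0e-13), without overlap. VARS1 rose by 1.24 (adjusted p = 3.2e-08) and the mitochondrial EARS2 by 1.15 (adjusted p = 1.9e-07). Of 38 cytosolic heat shock and chaperonin genes, 24 rose and 6 fell (median 0.45), and both directions held with library size alone, with 26 and 4. HSP90AB1, the constitutive HSP90, had 148 to 339 CPM (median 197) in fasted piglets, against 86.9 to 145 CPM (median 111) in fed piglets (log2 fold change 0.92, SE 0.10, adjusted p = 5.2e-12), without overlap. The stress-induced co-chaperone BAG3 and the HSP70 copy HSPA1L fell by 0.59 and 1.10 (adjusted p = 4.1e-05 and 2.3e-06). HSP70 genes are near-identical, so reads may be split among copies. Proteasome genes rose in 10 of 34 and fell in 2, a share near the background, led by PSMA5 (1.25, SE 0.14, adjusted p = 9.4e-12) and PSMA2 (1.09, SE 0.11, adjusted p = 2.9e-13), and 24 rose with library size alone.

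Targets of the amino acid stress factor ATF4 rose in 11 of 22 and fell in 6 (median 0.46). The members pointed different ways: ASNS rose, as above, and PSAT1 fell. TRIB3, an inhibitor induced by the pathway, fell (median 53.1 CPM in fasted and 145 CPM in fed piglets, log2 fold change -1.29, SE 0.15, adjusted p = 4.1e-11).

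Autophagy and lysosome genes fell more often than they rose with TMM scaling. Autophagy genes fell in 17 of 36 and rose in 3 (median -0.13), but with library size alone 11 rose and 7 fell, so the direction of the list depends on the scaling. UVRAG, which promotes autophagosome maturation, fell by 0.80 (SE 0.06, adjusted p = 6.8e-17), and SQSTM1, an adaptor for cargo, by 0.39 (adjusted p = 0.0021), lost with library size alone. OPTN and CALCOCO2, 2 cargo receptors, rose by 0.62 and 0.42 (adjusted p = 3.0e-04 and 3.7e-04). Of 46 lysosomal genes, 25 fell and 5 rose (median -0.28), and 19 fell and 12 rose with library size alone. CTSZ, a cathepsin, had 109 to 311 CPM (median 177) in fasted piglets, against 334 to 914 CPM (median 512) in fed piglets (log2 fold change -1.54, SE 0.13, adjusted p = 5.3e-16), without overlap, and LIPA, the acid lipase, fell by 1.08 (adjusted p = 1.2e-12). CTSL and CTSH rose by 1.18 and 0.90 (adjusted p = 2.5e-04 and 2.4e-07).

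Antioxidant and detoxifying genes were split with the scaling used. Of 30 glutathione, peroxiredoxin and NRF2 genes, 13 fell and 8 rose, and with library size alone 9 and 11. GPX4, the peroxidase that protects membrane lipids, had 36.0 to 68.5 CPM (median 49.1) in fasted piglets, against 102 to 172 CPM (median 126) in fed piglets (log2 fold change -1.36, SE 0.09, adjusted p = 6.3e-21), without overlap. The secreted GPX3 fell (median 39.6 CPM in fasted and 183 CPM in fed piglets, log2 fold change -2.21, SE 0.22, adjusted p = 1.2e-13), and GPX2, the gut peroxidase, rose by 1.41 (adjusted p = 0.0029), lost in limma-voom. Of 33 xenobiotic genes, 11 fell and 4 rose, and 6 and 6 with library size alone. POR, which supplies electrons to cytochrome P450 enzymes, had 284 to 661 CPM (median 448) in fasted piglets, against 865 to 2553 CPM (median 1312) in fed piglets (log2 fold change -1.61, SE 0.11, adjusted p = 3.7e-19), without overlap, and CYP4F3 rose by 1.61 (adjusted p = 7.0e-06).

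Genes of epithelial inflammation rose in 11 of 22 and fell in 1 (median 0.47). NOS2, which makes nitric oxide, had 11.3 to 351 CPM (median 86.1) in fasted piglets, against 4.48 to 36.9 CPM (median 13.4) in fed piglets (log2 fold change 3.09, SE 0.52, adjusted p = 5.3e-07), with overlap and a wide spread among fasted piglets. BPI, an antibacterial protein, rose (median 179 CPM in fasted and 37.9 CPM in fed piglets, log2 fold change 2.11, SE 0.41, adjusted p = 9.7e-06). The oxidase DUOX2 rose by 1.26 (adjusted p = 0.027), lost in limma-voom and with no low-count filter. LTF, lactoferrin, which binds iron, fell (median 2.48 CPM in fasted and 31.6 CPM in fed piglets, log2 fold change -3.48, SE 0.49, adjusted p = 7.0e-09), and LCN2, lipocalin-2, was under 1 CPM in every piglet of both groups. Macrophage and dendritic cell markers (0.75 higher) and neutrophil and eosinophil markers (1.61 higher) moved with this list, and their part in it was not tested.

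Tight junction genes went both ways, with 9 falls and 7 rises among 20, and 7 and 9 with library size alone. CLDN10, a claudin, fell (median 1.82 CPM in fasted and 16.6 CPM in fed piglets, log2 fold change -2.96, SE 0.31, adjusted p = 1.1e-12). The junction scaffold TJP3 rose without overlap (0.81, SE 0.08, adjusted p = 2.6e-14), CLDN23 rose by 1.00 (adjusted p = 6.4e-07), and the pore-forming CLDN2 by 0.46 (adjusted p = 0.0025). CLDN4, a sealing claudin, was at -0.02 (SE 0.13, adjusted p = 0.9). Ligands of the EGF receptor moved in opposite directions: AREG had 4.61 to 90.0 CPM (median 30.0) in fasted piglets, against 2.66 to 11.9 CPM (median 7.44) in fed piglets (log2 fold change 2.25, SE 0.29, adjusted p = 7.1e-10), and HBEGF fell by 1.11 (SE 0.17, adjusted p = 8.1e-08). LRIG1, a stem cell protein that restrains the receptor, rose by 1.50 (adjusted p = 1.2e-08), while crypt base markers were 1.18 higher. Of 25 enterocyte transcription factors, 11 rose and 5 fell. BCL6, a repressor, had 13.7 to 64.6 CPM (median 39.5) in fasted piglets, against 6.29 to 12.3 CPM (median 7.69) in fed piglets (log2 fold change 2.24, SE 0.15, adjusted p = 4.9e-20), without overlap. BCL6 (ENSSSCG00000011810, chromosome 13, 125377247 to 125401328) is protein-coding.

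Of 4 gut hormone genes, 3 fell, each by under 1 on the log2 scale. GCG, the precursor of GLP-1, had 41.4 to 119 CPM in fasted piglets, against 57.9 to 155 CPM in fed piglets (log2 fold change -0.36, SE 0.13, adjusted p = 0.012). Under library size scaling it did not pass. GIP, a hormone released by fat and sugar, fell by 0.57 (SE 0.17, adjusted p = 0.0034), and CCK, which signals fat and protein, by 0.70 (SE 0.13, adjusted p = 5.0e-06). SST, somatostatin, was at 0.12 (SE 0.13, adjusted p = 0.4). Ranges of all 4 overlapped. Enteroendocrine markers as a group differed by -0.19 (2.59 ± 0.27 fasted, 2.78 ± 0.17 fed, permutation adjusted p = 0.027), and by 0.01 with library size alone. PYY had no paired ID.

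The 12 largest rises among genes with a mean log2 CPM of at least 1, outside the interferon, cell cycle and fat-packaging lists, included several genes of macrophages. Members of the interferon list itself rose in 64 of 67 and macrophage and dendritic cell markers in 7 of 13, beside 33.9% of all genes. The part of either in these 12 rises was not tested. SIGLEC1, a macrophage receptor, had 1.75 to 133 CPM (median 25.6) in fasted piglets, against 0.0587 to 0.855 CPM (median 0.243) in fed piglets (log2 fold change 6.70, SE 0.50, adjusted p = 2.6e-18), and MMP12, the macrophage elastase, had 0.137 to 71.3 CPM (median 15.1) in fasted piglets, against 0.00 to 1.30 CPM (median 0.224) in fed piglets (log2 fold change 6.09, SE 0.70, adjusted p = 2.3e-11). CD163, a macrophage scavenger receptor of lower mean level that is named here after its value was seen, rose by 4.18. NUPR1, a stress-response regulator, rose by 5.99, with 3.38 to 253 CPM (median 42.5) in fasted piglets, against 0.529 to 1.96 CPM (median 1.08) in fed piglets. TGM3, a protein-crosslinking enzyme, had 5.12 to 107 CPM (median 36.5) in fasted piglets, against 0.167 to 3.02 CPM (median 0.736) in fed piglets (log2 fold change 5.43, SE 0.52, adjusted p = 6.4e-14). EDN1, endothelin, a constrictor of blood vessels, had 7.26 to 27.9 CPM (median 13.4) in fasted piglets, against 0.244 to 1.77 CPM (median 0.879) in fed piglets (log2 fold change 3.95, SE 0.30, adjusted p = 4.4e-18), while vessel markers were 0.95 lower, and NR4A3, an immediate-early nuclear receptor, had medians of 14.1 CPM in fasted and 0.903 CPM in fed piglets (log2 fold change 4.21, SE 0.32, adjusted p = 4.8e-18). Ranges of SIGLEC1, NUPR1, TGM3, EDN1 and NR4A3 did not overlap. The others were NEURL3, GUCA1A, PLA2G2D, SLFN11, PLEKHA4 and MT1X, at 5.55, 4.82, 4.16, 3.92, 3.91 and 3.80 on the log2 scale.

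By the same limits, the largest fall was that of SLC16A9, a carnitine transporter in human cells. It had 0.00 to 0.934 CPM (median 0.370) in fasted piglets, against 3.78 to 78.9 CPM (median 14.8) in fed piglets (log2 fold change -5.86, SE 0.37, adjusted p = 4.0e-21), without overlap, and GATM and SLC6A8, which serve creatine synthesis and import, also fell. DUSP9, a phosphatase of MAP kinases, fell without overlap (median 0.462 CPM in fasted and 8.66 CPM in fed piglets, log2 fold change -3.55, SE 0.34, adjusted p = 6.2e-14). ACTC1, cardiac actin, and KCNH6, a potassium channel, fell by 3.41 and 3.38 (adjusted p = 5.0e-13 and 7.3e-09). Smooth muscle markers fell in the same piglets, and their part in either fall was not tested. HOMER2, FOXO6, PDIA2, RNF207, HSPB8, LTF and SLC16A6 complete the 12 largest falls with GATM, at log2 fold changes between -4.83 and -3.36.

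The 4-week differences were set beside those of the 6-week piglets, in which age, weaning, diet and housing all differ. The fasting difference itself differed between the ages for 7556 genes (53.7%), and for 613 of the 931 list members (65.8%). Over all genes, 33.9% rose and 29.4% fell at 4 weeks, and 22.7% rose and 18.4% fell at 6 weeks. Sterol synthesis genes rose in 8 of 20 at 4 weeks, a share near that of all genes, and in 13 with library size alone. They fell in 18 of 20 at 6 weeks, and the 2 differences were unequal for 19 of the 20. Heat shock and chaperonin genes rose in 24 of 38 at 4 weeks and fell in 30 at 6 weeks. Autophagy genes fell in 17 of 36 at 4 weeks, where the list's direction turned with library size alone, and rose in 22 at 6 weeks. Vesicle coat genes and glycolysis fell at both ages, in 39 and 39 of 53 genes and in 14 and 13 of 22. MT1X rose at both ages, by 3.80 and 3.12 (difference 0.67, adjusted p = 0.27), and VDR fell at both, by 1.12 and 1.21 (difference 0.08, adjusted p = 0.71).

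Other genes behaved differently by age. IRS1 was at 3.55 at 4 weeks and -0.52 at 6 weeks (difference 4.07, adjusted p = 1.3e-14). SREBF1 was at -2.34 and 0.10 (difference -2.44, adjusted p = 3.0e-13), FKBP5 at 1.31 and 0.03 (difference 1.28, adjusted p = 3.4e-09), and SLC40A1 at -2.21 and 0.41 (difference -2.62, adjusted p = 1.3e-08). Among the pyruvate dehydrogenase kinases, PDK2 was at -1.50 and 1.19 (difference -2.69, adjusted p = 6.5e-15) and PDK4 at 0.33 and 3.43 (difference -3.09, adjusted p = 1.9e-12). The asparagine synthetase gene ASNS was at 1.95 and -1.55 (difference 3.50, adjusted p = 2.8e-13).

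**Figure D5:**
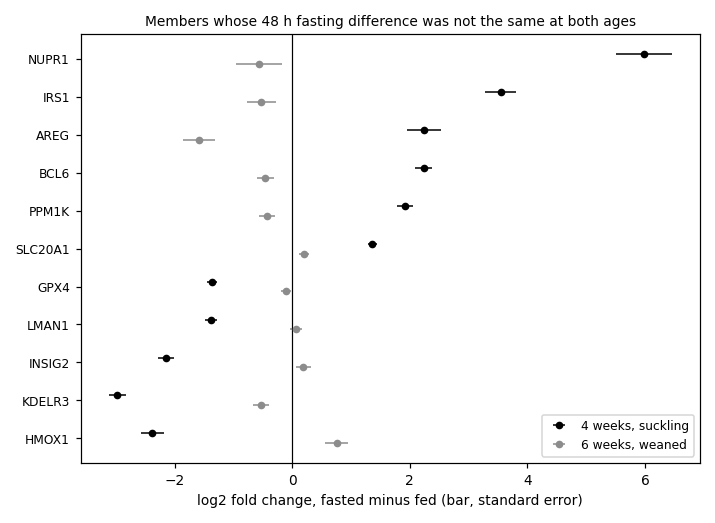
Log2 fold change, fasted minus fed, at 4 weeks (black) and 6 weeks (grey) with bars of 1 standard error, for the 11 list members with the smallest p for a difference between the ages in their section of the lists. HMOX1 was at -2.38 at 4 weeks and 0.76 at 6 weeks, and NUPR1 at 5.99 and -0.57.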

How the data were processed

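Per the labels, mucosa was scraped from the mid-jejunum of 64 piglets, and its total RNA was read on a BGISEQ-500 machine. The authors deposited raw counts per gene for each piglet. Alignment with STAR, counting with HTSeq and the build Sscrofa11.1 are named per the submitters' processing notes. Tool versions, annotation release and strand setting are not given in the sources used here. Without the strand, overlapping genes of opposite orientation cannot be told apart. The 5 HTSeq summary rows entered neither library sizes nor tests. At 4 weeks, 4.84 to 8.89% of all reads lay outside annotated genes, 5.50 to 7.64% were ambiguous and 2.74 to 3.82% had no unique alignment. Symbols were paired with 15029 of 31908 gene IDs, and a symbol shared by several IDs was given to the one with more counts.

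Of 25772 genes with a count, filterByExpr kept 14062. All 64 piglets entered one edgeR 4.0.16 quasi-likelihood model (TMM, robust, R 4.3.3) with a mean per group, and p-values were Benjamini-Hochberg adjusted over all tested genes, with calls under 0.05. The common biological coefficient of variation was 0.289. Standard errors are the absolute log2 fold change over the root of the F statistic. CPM used TMM-scaled libraries, apart from summed marker levels, which used library sizes without that factor and all markers with an ID. Marker levels, the mean log2 CPM (prior count 2) of a list, were compared by two-sided permutation tests with 100000 resamples, adjusted over 19 lists, with a smallest possible p of 1e-05. On simulated data of 14062 genes for fasted against fed 4-week piglets, 38 of 50 genes changed 1.5-fold were called, 47 of 50 at 2-fold and 50 of 50 at 3-fold, with 11 false calls. Only 50 genes were changed at each fold there, and all other genes had equal means in every group. The simulation therefore does not cover a contrast in which most genes differ, as in these data.

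The members and lists were chosen with earlier results of these data known, and no list was tested as a set. The lists hold 1130 symbols, older names of some genes included, of which 990 had an ID and 931 were tested. Genes are named by rule: up to 2 rises and 2 falls per list, the 12 largest rises and falls (interferon, cell cycle, fat-packaging, immunoglobulin, T cell receptor, mitochondrially encoded and ribosomal protein genes left out), all at a mean log2 CPM of at least 1, 44 fixed genes and the 2 smallest interaction p-values per section. The rule gave 218 genes, of which those that repeat others are left out, and a few others are not reported here. Alternatives were DESeq2 size factors, library size alone, no low-count filter, DESeq2 1.42.0, limma-voom (limma 3.58.1), a fit of the 4-week piglets only, a fit without fasted piglets 1, 28 and 32, and, chosen after seeing the data, a block of consecutive pig numbers.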

Additional observations from a re-analysis of the deposited data

Results flagged for a closer look

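For 11 list members the fasting difference at 4 weeks, minus that at 6 weeks, was past the threshold in edgeR's quasi-likelihood test of the difference itself. These were picked as the members with the smallest p in their section. The 4-week difference was the more positive by 6.56 on the log2 scale for NUPR1, 4.07 for IRS1, 3.83 for AREG, 2.69 for BCL6, 2.34 for PPM1K and 1.16 for SLC20A1. It was the more negative for HMOX1 (-3.13), KDELR3 (-2.45), INSIG2 (-2.33), LMAN1 (-1.44) and GPX4 (-1.26). Since 53.7% of all genes passed this test, such a difference is common. The ages also differ in weaning, diet and housing, which cannot be told apart.

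Reads outside annotated genes, which no comparison uses, made up 6.82 ± 0.66% of all reads in fasted and 5.33 ± 0.33% in fed 4-week piglets (mean ± SD, n = 16 each). Their share was above that of the fed piglets.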

How the results depend on the processing

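Over 8 alternatives, 4523 to 6960 genes rose and 2518 to 4737 fell. Over the 7 that include both ages, the fasting difference was unequal between the ages for 7554 to 7901 genes. With library size alone 2518 genes fell, all of them among the 4141. All 4768 rises were called there too, and the median of all genes was 0.25. That scaling made the lists' medians higher by over 0.1 for 45 of 45 lists and accounts for 30 of the 47 list counts that moved by over 1.5 times. Values that changed sign with library size alone were HARS2 (0.075), CPS1 (0.11), SLC7A9 (0.15), LCN2 (0.11) and CLDN4 (0.19), and the marker levels of enteroendocrine cells (0.010) and mast cells (0.12). In the fit of the 4-week piglets only, SLC7A9 was at 0.018 and CLDN4 at 0.0016. Of these genes, HARS2 alone had been called. Over all named genes and alternatives, 1697 values kept direction and call, 33 lost the call, 5 gained it and 7 changed sign. Without fasted piglets 1, 28 and 32 the calls of DPEP1, SLC30A1, DHPS and IRS2 were lost. With the median over markers, the calls of general epithelium (0.02) and enteroendocrine (-0.09) markers were lost, and with library size alone that of neuron and glia markers (-0.12). That scaling gained calls for goblet (0.25), tuft (0.30) and B cell (0.74) markers. The causes were not tested. Fasted and fed piglets share no pig number, but each odd number and the next even one hold 1 of each at the same age. Whether these are pairs is not given by the labels. The deviations from the group means correlated over 0.1 in 6 of the 16 such pairs at 4 weeks (median 0.07, -0.28 to 0.38). The median between piglets that were not neighbours was -0.015, and 3 of 16 fasted piglets correlated best with their neighbour. These values do not decide whether neighbours are pairs. As the labels give no litter or pen, the main fit did not pair them. With consecutive pig numbers as a replicate block, a fit chosen after seeing the data, 4640 genes rose, 4346 fell and 7701 differed between the ages. Counts of genes at low CPM, such as LCN2 and FABP6, limit their precision.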
